A study of Mus musculus with 8 samples.

Results

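The collagen genes of the mouse were followed through chromatin accessibility in 4 cell populations of the hair follicle lineage. Members were all protein-coding genes named Col, a number, the letter a and a number, 44 of the 21631 protein-coding genes used, together with the accessible sites that lay closest to one of them. Peaks that overlapped between the 4 deposited peak lists were joined into 1 site, and a site was given to the protein-coding gene whose span was nearest to its midpoint, up to 100 kb away. By this rule 42 of the 44 genes received 421 of the 114956 sites, and 102821 sites had a gene within reach. The same rule was also applied to each single peak by its own midpoint, so these peaks need not be those of the 421 sites. Peaks of collagen genes numbered 235 of 62320 in the bulge list and 193 of 56536 in the hair germ list. They numbered 269 of 75637 in the basal TAC list and 191 of 72137 in the suprabasal TAC list. Col7a1, which encodes the anchoring fibril collagen beneath the epidermis, and Col10a1, a collagen of growth plate cartilage, had no site in any list.

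Collagens are triple helices of 3 chains that cells secrete or anchor in their membrane. Basement membrane collagens form sheet-like networks under epithelia, or are carried there as proteoglycans, and the follicle's epithelial cells rest on such a sheet. Fibrillar collagens assemble into the tensile fibres of the dermis and are chiefly products of fibroblasts, whereas transmembrane collagens cross the plasma membrane of the cell that makes them. FACIT collagens decorate the surface of fibrils without forming fibrils themselves. Type XVII collagen is a component of the hemidesmosome, the junction that fixes basal keratinocytes to the basement membrane, and it is known for its role in the upkeep of hair follicle stem cells.

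ATAC-seq, in which a transposase tags open DNA for sequencing, had been run on cells sorted from the back skin of mice of mixed sex, with 2 samples per population. Bulge stem cells (GFP+, CD34+, integrins α6 and β1 positive) and hair germ cells (the same gate but CD34-) came from Lgr5-eGFP-ires-CreER mice in the second telogen, the resting phase, at postnatal day 55. Basal transient amplifying cells, the dividing progeny of the stem cells (basal TAC: GFP-, CD34-, Itgb1high, Pcad+, SCA1-), came from mice of the same strain at postnatal day 30, and suprabasal TACs (GFPlow, Itga6-, CD34-) from K14-H2BGFP mice at day 30, in anagen, the growth phase. Stage and age therefore coincide and cannot be told apart, and the suprabasal list differs from the other 3 in strain as well. Each list was called on both samples pooled, with the fewest fragments for the hair germ (11053351), more for the bulge (24065469) and basal TACs (30824845), and the most for suprabasal TACs (47852893). No spread between replicates could be computed, so no p-value is given. Exact 95% Clopper-Pearson intervals cover counting error only, and the comparisons below share lists and are not independent. In sorted populations, fewer cells with an open site and a less open site in every cell cannot be told apart.

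Promoter sequences are shown for the genes richest in sites among those whose start carried a peak in some or all lists and whose bases before the start lay outside other gene spans. They were taken from RefSeq promoter windows on build GRCm38.p6, which is mm10, and run 5′ to 3′ along the strand of the gene, ending at or just before the start. Capitals mark matches, on either strand, to short motifs that were searched by their letters. GGGCGG was read for SP and KLF factors, zinc finger proteins common at promoters. CAGACA was read for SMAD proteins, which carry signals of the TGF-β family. TGTGGT was read for RUNX proteins and AGATAA for proteins of the GATA family. CAGCTG is an E-box, and the last pair were the box named CCAAT and the TATAAA box of core promoters. Col18a1 is shown for both of its starts, which differed in their peaks between lists.
Col4a6, chrX:141474096-141474326, minus strand, peak at the start in all 4 lists, no match: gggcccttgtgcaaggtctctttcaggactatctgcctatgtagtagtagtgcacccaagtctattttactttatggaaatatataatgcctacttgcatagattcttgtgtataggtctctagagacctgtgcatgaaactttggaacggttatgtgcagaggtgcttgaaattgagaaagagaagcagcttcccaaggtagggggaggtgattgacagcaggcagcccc
Col18a1, first start, chr10:77166531-77166780, minus strand, peak in all 4 lists: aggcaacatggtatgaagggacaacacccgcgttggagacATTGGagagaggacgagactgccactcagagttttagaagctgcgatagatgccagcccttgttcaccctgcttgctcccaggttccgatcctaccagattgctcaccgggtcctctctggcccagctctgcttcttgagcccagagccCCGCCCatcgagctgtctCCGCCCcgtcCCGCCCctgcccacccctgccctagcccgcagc
Col18a1, inner start, chr10:77113706-77113955, minus strand, peak in all 4 lists: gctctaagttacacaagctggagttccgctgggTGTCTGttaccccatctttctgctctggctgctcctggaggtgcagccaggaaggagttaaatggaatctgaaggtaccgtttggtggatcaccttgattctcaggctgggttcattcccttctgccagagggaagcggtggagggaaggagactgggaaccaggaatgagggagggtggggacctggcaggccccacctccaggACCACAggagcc
Col5a1, chr2:27886175-27886380, plus strand, peak in all 4 lists: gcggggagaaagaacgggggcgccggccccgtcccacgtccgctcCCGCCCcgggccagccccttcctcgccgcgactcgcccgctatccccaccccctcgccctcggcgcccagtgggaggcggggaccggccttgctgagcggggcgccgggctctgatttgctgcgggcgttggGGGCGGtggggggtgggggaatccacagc
Col17a1, chr19:47692043-47692292, minus strand, peak in all 4 lists: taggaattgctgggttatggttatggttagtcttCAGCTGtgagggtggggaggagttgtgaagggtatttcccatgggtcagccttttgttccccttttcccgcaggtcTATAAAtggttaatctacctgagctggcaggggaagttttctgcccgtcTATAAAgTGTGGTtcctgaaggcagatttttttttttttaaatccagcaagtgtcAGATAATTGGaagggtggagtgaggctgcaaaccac
Col24a1, chr3:145292222-145292471, plus strand, peak in both TAC lists and in neither telogen list: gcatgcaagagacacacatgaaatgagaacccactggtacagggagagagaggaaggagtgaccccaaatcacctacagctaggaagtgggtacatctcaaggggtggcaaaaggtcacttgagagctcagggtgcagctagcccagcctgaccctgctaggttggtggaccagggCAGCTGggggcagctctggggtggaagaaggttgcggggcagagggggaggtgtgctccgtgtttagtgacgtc

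Collagen genes had many sites per gene, and most of these sites lay within the genes and away from their starts. The median collagen gene had 9 sites, against 2 for all protein-coding genes, and spanned 114.45 kb, against 17.3 kb. Of the 421 sites, 311 (73.9%) lay inside the span of their gene, against 62.3% of all assigned sites, and 22 (5.23%) lay within 1 kb of a RefSeq start, against 11.6%. At the edge of the 100 kb limit, the farthest sites counted were 95.5 kb from Col8a1, in the suprabasal TAC list, and 98.1 kb from Col12a1, in the bulge list. The nearest ones left out lay 101.5 kb and 104.2 kb from Col8a1. No collagen site tied between genes.

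Compared with all sites, a smaller share of the collagen sites was common to every list and a larger share was held by telogen lists alone. All 4 lists held 84 collagen sites (19.95%, 95% interval 16.2 to 24.1), against 28.9% of all assigned sites. Telogen lists alone held 106 (25.2%, against 14.9%) and anagen lists alone 165 (39.2%, against 40.4%). The bulge alone held 50 collagen sites (11.9%, against 6.35%), basal TACs alone 83 (19.7%, against 13.7%) and suprabasal TACs alone 43 (10.2%, against 15.8%). Of the 106 telogen sites, 46 were in both the bulge and the hair germ list, and of the 165 anagen sites 39 were in both TAC lists.

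**Figure D1:**
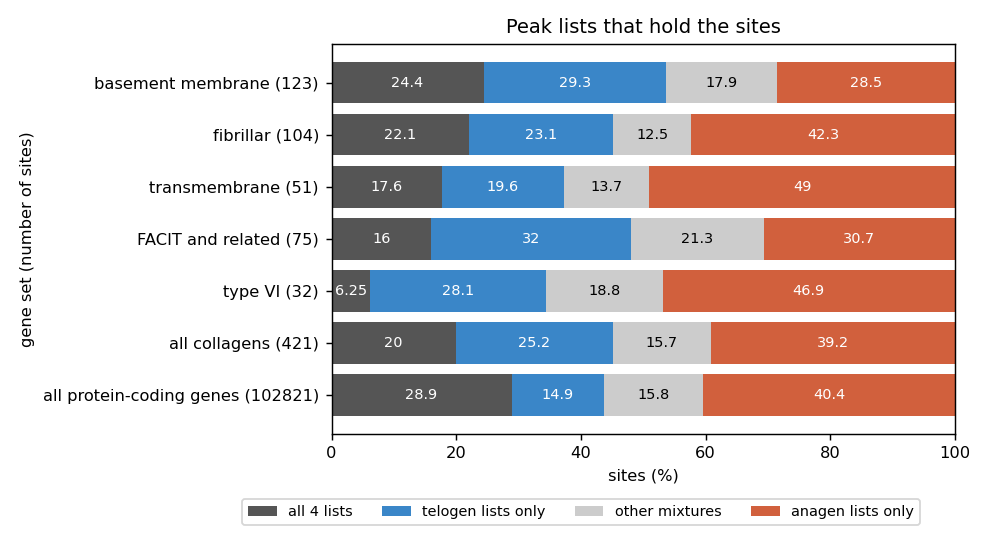
Share of sites (%, horizontal axis) by the peak lists that hold them, for 5 collagen classes, all collagens and all protein-coding genes, with the number of sites in brackets. Sites of telogen lists only make up 29.3% at basement membrane collagens and 25.2% at all collagens, against 14.9% at all genes.

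The basement membrane collagens, 9 genes of which 8 had sites, had the fewest sites in the suprabasal list. Of their 123 sites the bulge list held 78, the hair germ list 71, the basal TAC list 80 and the suprabasal TAC list 47. The other 3 lists were close to one another. The suprabasal list came from the deepest library and had the lowest median fold enrichment of the 4 lists, 4.79 over all its peaks against 6.71 to 7.48, and the part of both in this count was not tested. Of the 123 sites 12 were held by the bulge, hair germ and basal TAC lists but not by the suprabasal list, or 9.76%, against 5.33% of all assigned sites. Type VI collagens had 9.375% and FACIT collagens 8%. No member had more sites in suprabasal TACs than in the bulge: 7 had fewer and Col4a5 had 2 in each, where of all genes with a site in either list 22.1% had fewer and 44.6% had more.

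The type IV chains, the network-forming collagens of every basement membrane, are encoded in 3 head-to-head gene pairs. The spans of Col4a1 and Col4a2 overlap by 85 bp on chromosome 8, those of Col4a3 and Col4a4 by 114 bp on chromosome 1, and those of Col4a5 and Col4a6 are 1274 bp apart on the X chromosome. Each pair had 1 site across its starts that all 4 lists held. With these start sites included, sites held by all 4 lists numbered 5 at Col4a1, 3 at Col4a2 and 0 at Col4a3. They numbered 2 at Col4a4, 1 at Col4a5 and 4 at Col4a6. The rest were missing from 1 or more lists. Col4a1 and Col4a2 together held 21, 23, 32 and 14 sites, given like every set of 4 values below in the order of the lineage: bulge, hair germ, basal TACs, suprabasal TACs. Col4a3 and Col4a4 together held 15, 11, 14 and 6, and Col4a5 and Col4a6 held 18, 14, 12 and 7. All 3 pairs had their lowest number in the suprabasal list, and only the first pair had its highest number in basal TACs.

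Col4a2 had 9, 12, 17 and 5 sites, and Col4a1 had 12, 11, 15 and 9. The site between both starts, chr8:11311745-11314151, had a coverage at its highest point of 243, 129, 150 and 95 fragments and was enriched over its local background by a fold of 6.65, 7.72, 5.83 and 6.37. Coverage and fold enrichment are the authors' values, coverage is not scaled for depth, and both serve here to describe peaks and to rank them within a list. Col4a1 had its strongest peak of the bulge and hair germ lists 5.33 kb into the gene, at chr8:11306921-11308063, with coverage of 588, 235, 161 and 52. By −log10 q-value this peak stood at percentile 99.6 of the bulge list and 99.4 of the hair germ list. The strongest Col4a1 site was another one in each TAC list: 109.4 kb into the gene in basal TACs, with coverage of 141 and no peak in either telogen list, and 125.0 kb from the start, past the end of the gene, in suprabasal TACs, with coverage of 55. At Col4a2 a site held by basal TACs alone, 34.0 kb into the gene, had a coverage of 200.

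Col4a6, whose chain is restricted to few basement membranes, skin among them, had 16, 13, 10 and 5 sites. The number was lower in each list along the order given, and the sites lay across most of the 308.7 kb span. The site 110.2 kb into the gene (chrX:141362950-141364790) had coverage of 146, 39 and 95 in the first 3 lists and no suprabasal peak, and those 271.2 and 275.0 kb into the gene had telogen peaks alone, with coverage of 77 and 86 in the bulge list and 19 and 23 in that of the hair germ. A site 37.7 kb into the gene was held by both TAC lists alone, with coverage of 84 and 37. Col4a5 had 2, 1, 2 and 2 sites, with the shared start site counted for it by midpoint. Col4a3 had 7, 5, 7 and 3 sites and Col4a4 had 8, 6, 7 and 3. Both genes had a suprabasal peak of their own, with coverage of 95 and 85 and fold enrichments of 10.3 and 10.2.

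Col18a1, whose chain carries the endostatin fragment at its end, had 16, 17, 16 and 13 sites, and Col15a1, its nearest relative, had 8, 6, 6 and 7. At Col18a1 11 of the 21 sites were held by all 4 lists, the highest number of any collagen gene. RefSeq gives Col18a1 starts 52.825 kb apart, and both carried peaks in all 4 lists. Every list had a peak summit 1.19 to 1.28 kb before the first start and another 1.76 to 1.78 kb past the inner start. Coverage at the summit before the first start was 176, 62, 230 and 70, and at the summit past the inner start 356, 141, 119 and 177. The inner summit was thus 2.02, 2.27 and 2.53 times as high as the first in the bulge, hair germ and suprabasal TAC lists, and 0.517 times as high in basal TACs. The hair germ and suprabasal lists held a separate peak at the first start itself, with coverage of 57 and 132, and the TAC lists one at the inner start itself, with coverage of 60 and 58, where telogen lists had 1 broad peak. These ratios are within a list and have no replicate error.

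**Figure D2:**
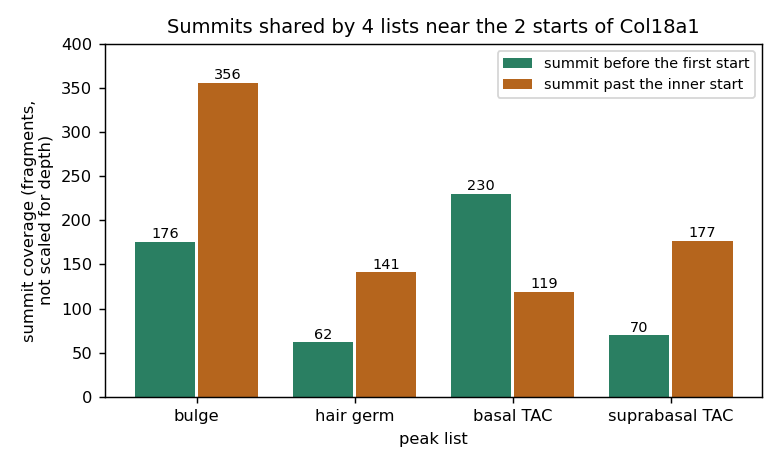
Coverage at the summit (fragments, not scaled for depth, vertical axis) of the peak before the first start and of the peak past the inner start of Col18a1 in each of the 4 pooled lists. The peak before the first start is the higher of the pair in basal TACs, with 230 against 119, and the lower in the other 3 lists. Neither summit lies at a start, and by the strongest peak over each start itself the first was the higher in both TAC lists.

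Fibrillar collagens, 11 genes with 104 sites, held 55, 44, 59 and 57 sites, so that the suprabasal list stood beside the basal TAC and bulge lists. Of fibrillar sites held by only 1 of the suprabasal and bulge lists, 51.7% (interval 38.4 to 64.8) were suprabasal. Over all genes this share was 59.7%, a value inside the interval. Col5a1, a nucleator of collagen fibrils, had 10, 10, 12 and 13 sites and Col27a1, a collagen of cartilage and other tissues, had 10, 9, 13 and 11. The abundant dermal fibril genes had fewer: Col1a1 had 6, 3, 4 and 5 sites, Col1a2 6, 3, 6 and 4 and Col3a1 0, 1, 1 and 0. Col5a2 had 7, 3, 5 and 5. Col2a1, the main collagen of cartilage, had 3, 4, 3 and 8 sites, and 5 of its 9 sites were held by the suprabasal list alone, with coverage of 18 to 155. Col5a3 had 0, 0, 4 and 1 sites, Col11a1 0, 0, 0 and 1, and Col11a2 2, 2, 2 and 4.

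Col24a1, a fibrillar collagen known from developing bone, had 11, 9, 9 and 5 sites, and 2 of its 19 sites were common to every list. Its strongest telogen site, chr3:145498825-145499632, lay 206.8 kb into the gene with bulge coverage of 371, hair germ coverage of 154, fold enrichments of 19.2 and 17.8, and no peak in either TAC list. The start itself had a peak in basal and suprabasal TACs alone, with coverage of 22 and 38 and fold enrichments of 2.77 and 3.12. By fold enrichment these weak peaks stood at percentiles 2.83 and 18.7 of their lists. The highest coverage anywhere in the joined site was 42 and 38. In basal TACs the strongest site lay 24.6 kb before the start, with coverage of 36, 14 and 170 in the first 3 lists. At Col27a1 the strongest telogen site, 63.6 kb into the gene, likewise had no TAC peak, with bulge coverage of 309 and hair germ coverage of 66. The strongest bulge site of Col1a2, 21.4 kb before its start, had coverage of 157 and 18 in the telogen lists and no TAC peak.

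The 4 transmembrane collagens with 51 sites held 25, 17, 34 and 25, and no pattern was common to them. Col17a1 had 16, 9, 7 and 8 sites, the highest number in the bulge. Col25a1, a collagen of nervous tissue and muscle, had 1, 1, 13 and 4, Col13a1, found at cell adhesion sites and the neuromuscular junction, 2, 3, 5 and 8, and Col23a1 6, 4, 9 and 5. The highest number thus stood in the bulge for 1 gene, in basal TACs for 2 and in suprabasal TACs for 1.

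At Col17a1 all lists held the start and a site 5.93 kb before it, and the bulge list added weak sites on both sides. The start site, chr19:47691397-47692574, had coverage of 147, 67, 58 and 52. The site 5.93 kb before the start, chr19:47696896-47699047, had coverage of 321, 121, 101 and 91, with fold enrichments of 7.94, 8.01, 7.47 and 9.22, and was the strongest of the gene in each list but that of basal TACs. There the strongest lay 21.0 kb into the gene, with coverage of 162, 75, 80 and 25 and fold enrichments of 9.19, 9.21, 10.5 and 2.96. Bulge sites without a peak in any other list numbered 6 and were low, with coverage of 25 to 75 and fold enrichments of 2.08 to 3.64. A site 32.9 kb into the gene was held by both TAC lists alone, with coverage of 50 and 47.

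At Col25a1 the start was open in every list, with coverage of 31, 23, 123 and 47, and the other 12 sites were held by anagen lists alone. Of these, 9 were in the basal TAC list alone and 3 in both TAC lists. The site 31.8 kb before the start, chr3:130148606-130149489, had coverage of 92 in basal and 67 in suprabasal TACs, and the site 157.4 kb into the gene had coverage of 68 in basal TACs with a fold enrichment of 12.8. Col13a1 had its strongest suprabasal site 27.4 kb before the start, with coverage of 67 in basal and 230 in suprabasal TACs and no telogen peak. Col23a1 had its strongest suprabasal site 68.0 kb into the gene, with coverage of 31 and 169 in the TAC lists and no telogen peak, while the strongest site of the other 3 lists was 249.8 kb into the gene, with coverage of 132, 53, 77 and 89.

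**Figure D3:**
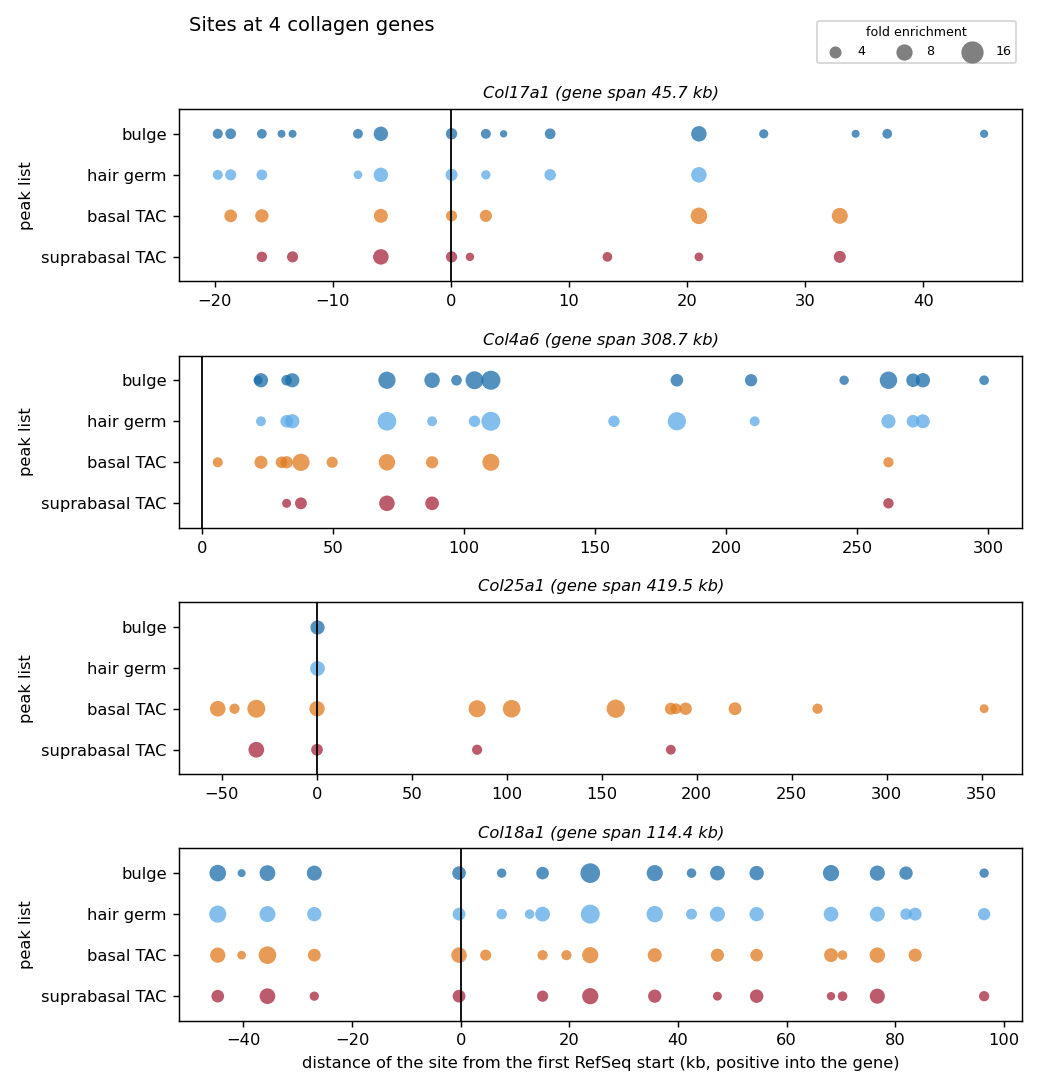
Sites of Col17a1, Col4a6, Col25a1 and Col18a1 by their distance from the first RefSeq start (kb, positive into the gene), with a row for each pooled peak list; the area of a point grows with the authors' fold enrichment and the vertical line marks the start. Col25a1 has 1 site in each telogen list and 13 in basal TACs, whereas Col4a6 goes from 16 sites in the bulge to 5 in suprabasal TACs.

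Among the FACIT and related collagens, 9 genes with 75 sites, the lists held 46, 34, 44 and 25. Col12a1, which binds fibrils in dense connective tissue, had 13, 8, 4 and 1 sites, and 10 of its 14 were held by telogen lists alone. Of the 14 sites 7 lay outside the gene, 49.6 to 98.1 kb away, and telogen lists alone held each of these. The site all 4 lists shared, chr9:79718521-79719194, had coverage of 140, 81, 170 and 87. Its strongest telogen site, chr9:79648405-79649417, had coverage of 192, 92 and 61 in the first 3 lists and none in the suprabasal list. Col14a1, another fibril-bound collagen, had 13, 8, 17 and 5 sites, and 9 of its 24 were held by basal TACs alone, among them chr15:55492891-55493703 with coverage of 155 and a fold enrichment of 13.3. Col16a1 differed little between lists, with 7, 7, 8 and 8 sites, and Col19a1 had 8, 7, 8 and 4. The strongest Col19a1 site, chr1:24612528-24613121, had the highest fold enrichment of all collagen sites in every list. It lay 24.9 kb outside the gene, overlapped the annotated pseudogene Gm10222, and had coverage of 1524, 686, 394 and 733 and fold enrichments of 38.9, 39.6, 33.8 and 37.6. It ranked 1, 1, 2 and 1 by fold enrichment among all peaks of the 4 lists, and whether reads of other copies of this sequence were counted there was not tested.

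Type VI collagens, 6 genes with 32 sites that encode the beaded microfibrils around cells, held 15, 10, 22 and 5 sites. Col6a6 had 4, 1, 7 and 0 and Col6a1 had 2, 3, 6 and 2. At Col6a1 the highest coverage was found in telogen lists, 7.31 kb before the start, with 341, 128, 25 and 28. Of the short-chain network collagens, Col8a1, a collagen of vessel walls and the cornea, had 4, 2, 7 and 3 sites, and Col8a2 had 4 in every list. Col28a1 had 4, 4, 11 and 8 sites and Col26a1, held outside the classes above, had 1, 1, 4 and 8. The other FACIT genes, Col9a1, Col9a2, Col9a3, Col20a1 and Col22a1, had 1 to 6 sites each, and the other type VI genes, Col6a2 to Col6a5, 2 to 7 each.

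**Figure D4:**
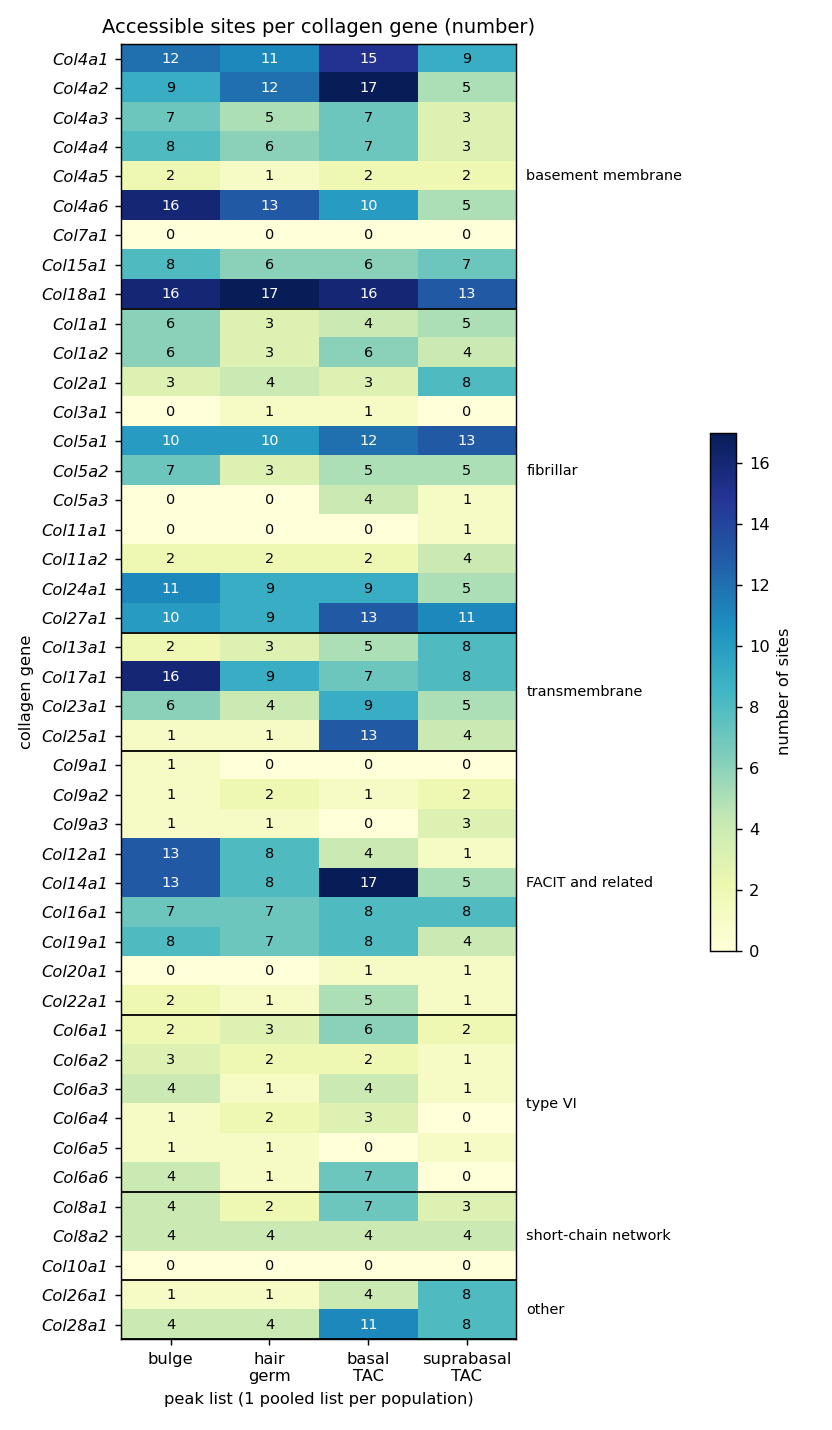
Number of accessible sites of each of the 44 collagen genes (rows, by class) in the 4 pooled peak lists (columns); darker cells hold more sites. Col4a6, Col12a1 and Col17a1 have their highest number in the bulge (16, 13 and 16) and Col4a2, Col25a1 and Col14a1 in basal TACs (17, 13 and 17).

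Bulge and hair germ were compared to ask how both stem cell compartments of the resting follicle differ. Of 39 collagen genes with a site in either list, the hair germ held fewer at 22, more at 8 and equally many at 9. Over all protein-coding genes 30.4% had fewer and 13.8% had more. Among genes with at least 10 sites, 15 of 20 collagen genes and 1813 of 3106 genes of every kind had fewer. Of 93 collagen sites held by 1 of these lists, 24 were in the hair germ (25.8%, interval 17.3 to 35.9), against 33.9% over all genes, a value inside the interval. The largest differences were at Col17a1 (16 against 9), Col12a1 (13 against 8) and Col14a1 (13 against 8), and Col4a2 went the other way (9 against 12). Hair germ minus bulge differences kept their sign but were smaller under some alternatives, down to -1 site at Col17a1, -1 at Col12a1 and -2 at Col14a1. When only peaks with a −log10 q-value of 10 or more were kept, the collagen share was 13.75% and that of all genes 14.7%, and 1 collagen gene had more sites in the hair germ. With equal numbers of peaks from every list the shares were 36.1% and 47.5%. The basement membrane share, 37.0% in the hair germ, ran from 14.3% to 55.6% over the alternatives. The hair germ library was the shallowest, and depth and population cannot be told apart.

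Basal TACs were compared with the hair germ to follow the lineage from rest into growth. Of 40 collagen genes 26 had more sites in basal TACs, 8 had fewer and 6 had the same number, against 49.1% with more and 13.2% with fewer over all genes. Collagen genes have more sites than most genes, however. Among genes with at least 10 sites, 14 of 20 collagen genes and 2339 of 3113 genes of every kind had more, so the excess was not seen there. Of 200 sites held by 1 of the lists, 139 were in basal TACs (69.5%, interval 62.6 to 75.8), close to the 71.8% of all genes. Transmembrane collagens had 22 of 27 (81.5%, interval 61.9 to 93.7), of which Col25a1 gave 12, and basement membrane collagens 34 of 59 (57.6%, interval 44.1 to 70.4). With equal numbers of peaks the share in basal TACs was 52.3% for all collagens, beside 51.9% for all genes, and 42.3% for basement membrane and 47.4% for fibrillar collagens (67.4% with all peaks), both then below 50%. Col14a1 (8 against 17), Col6a6 (1 against 7) and Col28a1 (4 against 11) had more sites in basal TACs, and Col12a1 (8 against 4) and Col4a6 (13 against 10) had fewer. Over the alternatives the difference ran from 4 to 10 sites at Col14a1, from 4 to 6 at Col6a6 and from 3 to 9 at Col28a1.

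Suprabasal and basal TACs were compared to see what differs as cells leave the basal layer. Of 41 collagen genes 24 had fewer sites in suprabasal TACs, 12 had more and 5 had the same number, against 31% with fewer and 31.4% with more over all genes. Among genes with at least 10 sites, 16 of 20 collagen genes and 1516 of 3113 genes of every kind had fewer. Of 183 sites held by 1 of the lists, 50 were in suprabasal TACs (27.3%, interval 21.0 to 34.4), below the 47.1% of all genes. Basement membrane collagens had 7 of 47 (14.9%, interval 6.20 to 28.3), type VI collagens 1 of 19 (5.26%, interval 0.133 to 26.0) and FACIT collagens 7 of 33 (21.2%, interval 8.98 to 38.9). Fibrillar collagens had 21 of 44 (47.7%, interval 32.5 to 63.3), near the value of all genes. The fibrillar share and that of all genes both depended on the setting. When a site counted as absent only where its coverage, scaled to the other library, would have been called, they were 28.1% and 35.6%, and when peaks below a −log10 q-value of 10 were left out, 21.6% and 34.9%. The basement membrane share lay between 8.16% and 20% under every setting tried, and the all-gene share between 34.9% and 50.8%. The lowest suprabasal numbers against basal TACs were at Col4a2 (5 against 17), Col14a1 (5 against 17) and Col25a1 (4 against 13), and the highest at Col2a1 (8 against 3) and Col26a1 (8 against 4). The Col2a1 difference of 5 was 2 under 1 or more alternatives, and that of Col4a2 stayed between -13 and -12.

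Suprabasal TACs and the bulge are the ends of the lineage sampled here. Of 41 collagen genes 23 had fewer sites in suprabasal TACs, 14 had more and 4 had the same number, against 22.1% with fewer and 44.6% with more over all genes. Among genes with at least 10 sites, 16 of 20 collagen genes and 1088 of 3113 genes of every kind had fewer. Of 228 sites held by 1 of the lists, 89 were in suprabasal TACs (39.0%, interval 32.7 to 45.7), below the 59.7% of all genes. Basement membrane collagens had 15 of 61 (24.6%, interval 14.5 to 37.3), and 17.9% to 29.2% under every setting tried. The share was as low at FACIT collagens, 10 of 41 (24.4%, interval 12.4 to 40.3), and at type VI collagens, 3 of 16 (18.75%, interval 4.05 to 45.6). Fibrillar collagens had 31 of 60 (51.7%, interval 38.4 to 64.8), a share that was 32.6% with absence scaled for depth, where all genes had 48.5%. It was 33.3% with equal numbers of peaks, against 51.3%, and 23.1% without peaks below a −log10 q-value of 10, against 50.5%. Transmembrane collagens had 15 of 30 (50%), but 12 of 16 (75%) without Col17a1, at which 3 differing sites were in suprabasal TACs and 11 in the bulge. Gene by gene, suprabasal numbers were lowest against the bulge at Col12a1 (1 against 13), Col4a6 (5 against 16), Col17a1 (8 against 16) and Col14a1 (5 against 13), and highest at Col26a1 (8 against 1), Col13a1 (8 against 2) and Col2a1 (8 against 3). All of these kept their sign under every alternative, but the difference was as small as 1 site at Col2a1, 3 at Col13a1, -4 at Col17a1 and -5 at Col12a1.

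**Figure D5:**
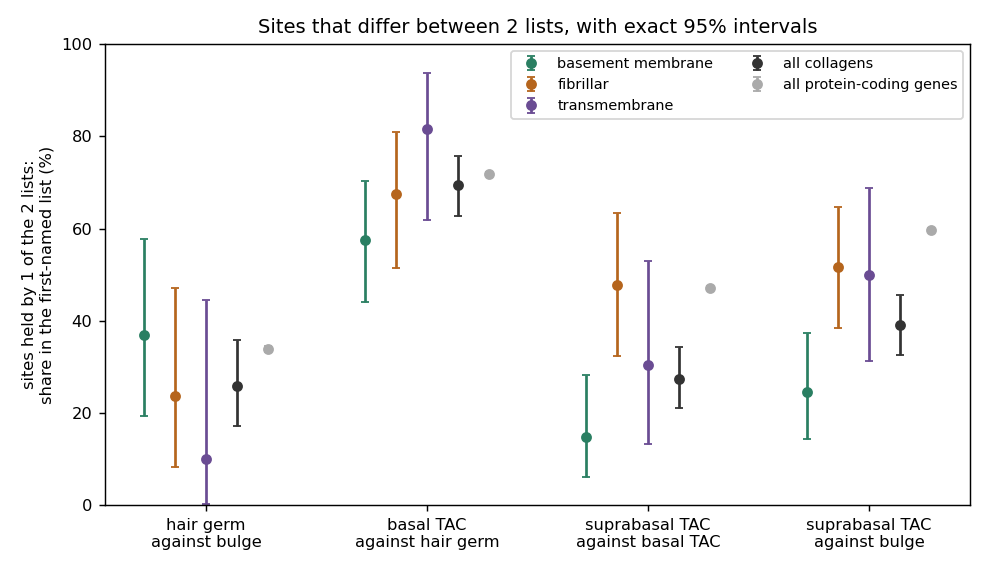
Share of the sites held by 1 of the 2 compared lists that stood in the first-named list (%, vertical axis), for collagen classes, all collagens and all protein-coding genes in 4 comparisons; points are shares and bars exact 95% intervals, which cover counting error only. In both comparisons of suprabasal TACs the basement membrane value, 14.9% against basal TACs and 24.6% against the bulge, lies below that of all genes, 47.1% and 59.7%. FACIT and type VI collagens, which are not drawn, had 24.4% and 18.75% against the bulge.

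Most gene starts had a peak in all 4 lists or in none. A RefSeq start was in the table for 35 of the 44 genes, and a peak overlapped the window from 250 bases before to 50 bases after it at 19, 19, 21 and 19 of them. Over all protein-coding genes with a start this was 58.3%, 57.5%, 60.1% and 59.6%. The start was open in all 4 lists at 17 collagen genes and in none at 13, against 54.7% and 36.8% of all genes. Basement membrane collagens had 6 of 8 starts open in all lists, with Col7a1 and Col15a1 open in none, and type VI collagens 1 of 6, at Col6a2. The remaining 5 genes differed between lists: the Col24a1 start was open in both TAC lists, that of Col5a3 in basal TACs, that of Col9a2 in suprabasal TACs, and those of Col13a1 and Col19a1 in all but the suprabasal list, though at Col13a1 a suprabasal peak lay just beside the window.

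The base composition of the windows followed the same division. Over single starts, of which some genes have a pair, the 18 collagen windows with a peak in all lists had a median GC content of 62.5% and a median observed over expected CpG ratio of 0.574. The 14 without a peak in any list had 55.3% and 0.180. Over all genes the values were 62.3% and 0.794 with a peak in all lists and 47.7% and 0.199 without. The SP/KLF letters were found in 15 of the 18 open windows and 5 of the 14 closed ones, against 69.9% and 15.1% of all windows of these kinds. The TCF/LEF letters (CTTTGA) were in 9 of all 38 collagen windows, against 14.4% of all windows. They were in 0 of the 18 windows with a peak in all lists, against 10.5% of all such windows. Of the 14 windows without a peak in any list 4 held them, against 19.9%. The other matches lay in windows with a peak in some lists only, among them windows of Col13a1, Col5a3, Col6a2 and Col9a2. Of the 38 windows 9 held the SMAD letters, 3 those of RUNX, 2 those of GATA factors and 7 the E-box, against 18.5%, 14.7%, 9.68% and 15.7% of all windows. The CCAAT box was in 13 and the TATAAA box, of which the Col17a1 sequence holds a pair, in 5, against 38.5% and 12.7%. The NFI letters (TTGGCA) were in 7, those of LIM homeobox factors (TAATTA) in 2 and those of AP-1 in 1, against 13.1%, 4.47% and 7.04%. In the Col17a1 sequence the GATA match and the reversed CCAAT match share a base. A match of letters is a description and does not show binding.

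The strongest site of a collagen gene was mostly not the same one in all lists. Of the 20 collagen genes with at least 10 sites, 1, Col19a1, had the same strongest site in every list by −log10 q-value, 7 had a pair of different ones, 11 had 3 and 1 had 4. Of the 3113 protein-coding genes with at least 10 sites these shares were 26.6%, 40.9%, 26.3% and 6.20%. Among basement membrane genes Col15a1 had 1 for both telogen lists, 43.8 kb into the gene with coverage of 97 and 56, and another for both TAC lists, 102.8 kb into the gene with coverage of 96 and 55, though all 4 lists held both.

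Genes that act on collagens were read from lists of known functions. The 22 genes of collagen synthesis and processing held 105, 85, 106 and 81 sites. In suprabasal TACs against the bulge 7 genes were lower, 4 higher and 11 equal, against 22.1% lower and 44.6% higher over all genes. P3h2, a prolyl 3-hydroxylase that modifies type IV collagen, had 28, 20, 16 and 11 sites, Adamts2, which removes the amino-terminal propeptide of fibrillar collagens, 4, 5, 14 and 6, and Plod2, a lysyl hydroxylase, 2, 1, 8 and 2. The 7 cross-linking genes held 20, 19, 32 and 14. In suprabasal against basal TACs none were higher and 5 lower, against 31.4% higher and 31% lower over all genes. Pxdn, the peroxidase that cross-links type IV collagen, had 4, 3, 12 and 3, Lox, a lysyl oxidase, 2, 0, 4 and 0, and Loxl4, of the same enzyme family, 6, 6, 3 and 3. P3h2 and Pxdn thus had their highest number in different lists, the bulge and basal TACs.

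The 9 collagen receptor genes held 46, 46, 65 and 38 sites. Itgb1, the β chain shared by the collagen-binding integrins and one of the sort markers, had 7, 6, 11 and 1 sites, Itga1, the α1 chain, 12, 16, 16 and 8 and Ddr2, a receptor kinase for fibrillar collagen, 4, 3, 12 and 2. The 18 partners at the basement membrane (laminins, nidogens, perlecan and hemidesmosome genes) held 170, 153, 204 and 190, so that the suprabasal list was not the lowest as it was for the collagens of that membrane. In suprabasal TACs against the bulge 11 of the 18 had more sites and 5 fewer, where the collagens had 0 and 7. Over all genes 44.6% had more and 22.1% fewer, and of 3113 genes with at least 10 sites 1790 had more and 1088 fewer. The partners thus stood near genes at large. Dst, a hemidesmosomal plakin, had 32, 24, 34 and 19, Fras1, an extracellular protein of the epidermal basement membrane, 15, 17, 23 and 29, and Lamc1, the laminin γ1 chain, 9, 10, 19 and 16. The 13 degradation genes held 36, 29, 39 and 34 and 5 of them no site, with 12, 8, 7 and 5 at Mmp2, a gelatinase, 2, 2, 4 and 6 at Adam10, a membrane protease, and 5, 4, 8 and 7 at Timp2, an inhibitor of metalloproteinases.

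Markers of other cell types were counted because fibrillar and type VI collagens are also genes of fibroblasts. The 8 epithelial markers all had sites in every list, 79, 71, 74 and 87 in sum. The 8 dermal fibroblast markers held 30, 21, 45 and 47, with Dcn at 1, 1, 6 and 10, Twist2 at 1, 1, 4 and 10, Dpt at 4, 2, 8 and 0, Pdgfrb at 1, 0, 4 and 5, Fbln1 at 11, 9, 12 and 13, Thy1 at 6, 4, 4 and 3, Pdgfra at 6, 4, 5 and 6 and Lum at 0, 0, 2 and 0. The 8 endothelial markers held 43, 39, 51 and 35, with Tek at 8, 9, 11 and 0, Emcn at 5, 4, 8 and 0, Vwf at 4, 4, 9 and 9, Cdh5 at 7, 6, 10 and 9, Pecam1 at 10, 10, 9 and 12, Kdr at 5, 3, 2 and 2, Cldn5 at 4, 3, 2 and 1 and Tie1 at 0, 0, 0 and 2. Melanocyte markers held 37, 27, 41 and 48 and immune markers 3, 5, 14 and 16. In sum, fibroblast marker sites were more numerous in both TAC lists than in telogen lists. Single markers differed: of 7 with a site in either list, 4 had more in suprabasal TACs than in the bulge, 2 fewer and 1 the same number. Over all genes with a site in either list 44.6% had more and 22.1% fewer. The TAC lists also held more peaks in all, 75637 and 72137, against 62320 and 56536 in the bulge and hair germ lists. Fibrillar collagen sites were about as many in the bulge as in the TAC lists, and type VI sites were most numerous in basal TACs. The part of other cell types in the collagen counts was not tested.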

How the data were processed

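Accessible DNA had been measured by ATAC-seq in 8 samples, 2 for each of 4 sorted populations, and the deposited files hold 1 peak list per population. Per the submitters' processing notes, the tools were Bowtie2 2.2.9, Picard and MACS2, on build mm10. Per the file headers, MACS 2.1.1.20160309 called peaks from paired-end fragments with all duplicates kept and no control, at a q-value cutoff of 0.05, with 1.87e+09 as effective genome size and 10 kb as local background. No source used here states whether fragment ends were shifted for the transposase. The deposited lists hold, for every peak, its length (bp), summit coverage (pileup signal, unscaled), fold enrichment, and −log10 p- and q-values, and damaged names of the last pair of columns were told apart by their place.

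Peaks of chromosomes M and Y were not used. Peaks overlapping by at least 1 bp were joined into sites, and a site was held by a list with a peak in it. Sites went to the nearest protein-coding gene span of a RefSeq table (GRCm38.p6), to each gene where spans tied. The table gives no exons, so exons and introns were not separated. Starts came from a RefSeq promoter table that held 35 of the 44 genes. In each comparison a site held by 1 of the lists counted as differing. Named genes were all basement membrane, fibrillar and transmembrane collagens with a site, other collagens with at least 10 sites or a difference of at least 5 between lists, and the 3 genes of each functional list with the largest difference. Other collagens and the named marker genes were chosen after their values were seen. Alternatives were a −log10 q-value of at least 10, 50% of the longest peak covered, 20 kb, no ties, absence scaled for depth (5th percentile of coverage), equal numbers of peaks and 1 kb around starts. Members, classes and lists were chosen with earlier results of these data known. Assignment and counting were tested on simulated peaks. Python 3.11.15, pandas 2.3.3 and scipy 1.17.1 were used.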

Additional observations from a re-analysis of the deposited data

How the results depend on the processing

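No paired analysis was possible because each list pools both samples of its population, and for the same reason no replicate could be left out. Of 148 recomputed summary values 122 stayed within their interval, or within 1.5 times for counts, 25 moved, and 1 share whose interval lay above 50% was below 50%. Values are shares of differing sites in the first-named list, with the all-gene share at the same setting in brackets. With only peaks of a −log10 q-value of 10 or more, hair germ against bulge gave 13.75% for all collagens and 14.3% for basement membrane collagens (14.7%), with 1 gene having more sites; basal TAC against hair germ gave 79.4% and 76% (80.8%); suprabasal against basal TAC gave 15.2% for all and 21.6% for fibrillar collagens (34.9%) with 5 genes having more; suprabasal TAC against bulge gave 27.8% and 23.1% (50.5%) with 7 genes; and 12 suprabasal starts had a peak. With absence scaled for depth, suprabasal against basal TAC gave 17.9% for all and 28.1% for fibrillar collagens (35.6%) with 7 genes, and against the bulge 27.6% and 32.6% (48.5%) with 8 genes. With equal numbers of peaks, hair germ against bulge gave 36.1% (47.5%); basal TAC against hair germ 52.3% for all, 42.3% for basement membrane and, reversed from 67.4%, 47.4% for fibrillar collagens (51.9%); and suprabasal TAC against bulge 31.1% for all and 33.3% for fibrillar collagens (51.3%) with 8 genes. Across all settings 5 of the shares crossed 50% at least once, among them basement membrane collagens in hair germ against bulge (37.0%, then 52.6% with absence scaled for depth and 55.6% with equal numbers of peaks). Leaving out the gene with most differing sites, an alternative chosen after seeing the data, gave 75% for transmembrane collagens in suprabasal TAC against bulge without Col17a1. The causes were not tested. All 26 gene differences of at least 5 sites kept their sign, though not their size. Requiring a peak to cover 50% of the longest one and a limit of 20 kb kept every summary value within these limits. Leaving out ties could not change any collagen value, because no collagen site tied between genes. Its values, which are counted among the 148 and among the alternatives for the 26 differences, were thus fixed in advance. The hair germ list had the fewest fragments, and whether a peak missing there lay under its calling level was not tested.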
